A study of Arabidopsis thaliana with 48 samples.

Results

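The *KISS ME DEADLY* (*KMD*) family of Arabidopsis has 4 members, *KMD1* (AT1G80440), *KMD2* (AT1G15670), *KMD3* (AT2G44130) and *KMD4* (AT3G59940). They were picked by their locus identifiers among the 34262 genes of a read count table, and all 4 were found there. RNA was sequenced from excised 4th rosette leaves of 21-day-old Col-0 plants, which floated on a buffer solution through 24 h of darkness at 16 °C and afterwards stood in constant white light at 22 °C. The series holds 16 time points with 3 libraries each (48 libraries in all). The time points lie every 0.5 h from 19.5 to 27 h after treatment, as the sample labels give them. The study's methods count the sampling hours after the dark and cold pre-treatment, which places all samples in the light. All groups share the ecotype, the excision and the dark and cold pre-treatment, so the comparisons are between times, and no intact or untreated leaf was analysed here. Whole leaves are bulk material, in which a smaller share of expressing cells and less RNA per cell cannot be told apart. Nothing in the labels or methods ties the 3 replicates to different plants or plates, and the spread that the p-values rest on may therefore be technical.

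KMD proteins are F-box proteins with Kelch repeats. An F-box protein is the exchangeable subunit of an SCF ubiquitin ligase: it holds the substrate, and the ASK adaptor, the CUL1 scaffold and the RBX1 RING protein complete the enzyme. KMD proteins are known to deliver type-B response regulators, the transcription factors at the end of the cytokinin phosphorelay, for degradation, and KMD1, KMD2 and KMD4 (also named KFB20, KFB01 and KFB50) are known to do the same to phenylalanine ammonia-lyases, the entry enzymes of phenylpropanoid synthesis. The study named *KMD1* among its genes that oscillate with a period of a few hours. It also followed a *KMD1* promoter in luciferase reporter leaves and reported that the rhythm was lost in an *EAR1* mutant. Those recordings were not analysed here.

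The libraries held between 23572988 and 38763552 counted reads, with a median of 30954455. Leaf mesophyll markers were abundant (3 of 3 above 1 CPM, counts scaled to library size, with a summed level of 13895 to 64001 CPM), markers of guard cells, epidermis and vasculature were detected (10 of 11 above 1 CPM), and 0 of 4 root markers reached 1 CPM, with a summed level of at most 0.0304 CPM. *LHY*, a morning factor of the circadian clock, set 2 libraries apart from the others of their time point. It was at 21.8 CPM in replicate 1 of 22.5 h, against 330 and 344 CPM in the other libraries of that time, and at 248 CPM in replicate 3 of 24 h, against 36.7 and 29.8 CPM in the other libraries of that time. In replicate 1 of 22.5 h, *KMD1* (66.8 CPM), *KMD3* (16.8 CPM) and *KMD4* (150 CPM) lay between the other libraries of that time, and *KMD2* (37.1 CPM) lay above them (24.3 and 23.3 CPM). In replicate 3 of 24 h, *KMD3* (9.65 CPM) lay between the others, while *KMD4* was lower (76.2 CPM, against 131 and 145 CPM in the others), as were *KMD1* (35.3 CPM, against 47 and 39.7 CPM) and *KMD2* (21.4 CPM, against 25.3 and 22.1 CPM). What part these libraries have in the results was not tested beyond leaving them out. *LHY* also did not follow a smooth course along the labelled times where the libraries of a time were alike. At 20.5 h its libraries were at 216 to 275 CPM, and at 21 h at 28.3 to 37.4 CPM. At 22 h they were at 178 to 303 CPM. The time labels were kept as given, and what this course means for them was not tested.

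All 4 genes lie on the plus strand and have 1 exon and 1 annotated transcript in the RefSeq annotation of TAIR10.1, *KMD1* and *KMD2* on chromosome 1, *KMD3* on chromosome 2 and *KMD4* on chromosome 3. Their coding sequences are 1065, 1080, 1230 and 1257 bases long, in the order *KMD1* to *KMD4*. They fall into pairs by sequence: aligned coding bases were identical at 76.7% of positions between *KMD1* and *KMD2* and at 75.8% between *KMD3* and *KMD4*, against 63.6% to 65.9% in the 4 other pairs. The longest run of identical bases shared by any 2 transcripts was 26 bases, between *KMD3* and *KMD4*. On the minus strand, the exons of AT2G44140 (a peptidase family C54 protein) cover 100% of the *KMD3* transcript in this annotation, and those of AT3G59950 cover 10.4% and of the antisense RNA AT3G09275 89.7% of the *KMD4* transcript. AT3G09275 was counted at 4 to 69 reads per library, where *KMD4* had 874 to 14883. AT2G44140 was counted at 590 to 1373 reads, where *KMD3* had 91 to 1927. Over the 48 libraries AT2G44140 followed *KMD3* with r = 0.90 on the log2(CPM + 1) scale, while AT3G59950 and *KMD4* gave r = -0.20. Whether the counting used strand is not given in the sources used here, and without it reads of *KMD3* and AT2G44140 cannot be told apart, so the *KMD3* values are uncertain.

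The 250 bases before each gene start are shown because 3 of these genes moved together, as described further on. They were read from the plus strand of RefSeq TAIR10.1, at chr1:30241202-30241451 for *KMD1*, chr1:5389702-5389951 for *KMD2*, chr2:18253360-18253609 for *KMD3* and chr3:22142606-22142855 for *KMD4*. The deposited table holds no coordinates. Capitals mark matches to the motifs of 6 or more letters named after the sequences.
KMD1: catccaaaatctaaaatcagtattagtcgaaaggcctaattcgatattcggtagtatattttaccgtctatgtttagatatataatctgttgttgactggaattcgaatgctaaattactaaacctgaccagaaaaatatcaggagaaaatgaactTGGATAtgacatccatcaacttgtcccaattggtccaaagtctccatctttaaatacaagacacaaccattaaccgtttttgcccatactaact
KMD2: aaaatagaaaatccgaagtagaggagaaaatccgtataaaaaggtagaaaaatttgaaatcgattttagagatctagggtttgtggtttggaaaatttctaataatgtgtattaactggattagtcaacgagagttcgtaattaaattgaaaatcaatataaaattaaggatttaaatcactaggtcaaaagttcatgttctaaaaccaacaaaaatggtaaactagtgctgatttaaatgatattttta
KMD3: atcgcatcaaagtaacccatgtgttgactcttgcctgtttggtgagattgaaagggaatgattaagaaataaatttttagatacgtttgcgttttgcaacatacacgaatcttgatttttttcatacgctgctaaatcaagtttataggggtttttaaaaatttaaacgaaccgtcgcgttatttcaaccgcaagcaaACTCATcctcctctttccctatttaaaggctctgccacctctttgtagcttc
KMD4: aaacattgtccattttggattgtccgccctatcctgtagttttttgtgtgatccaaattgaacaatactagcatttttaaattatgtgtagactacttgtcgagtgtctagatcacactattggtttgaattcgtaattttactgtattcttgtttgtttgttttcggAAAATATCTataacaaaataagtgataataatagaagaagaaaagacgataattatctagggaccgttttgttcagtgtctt
These 8 motifs known from clock, light, sugar and hormone response promoters are spelled out here, each searched on both strands. *KMD4* holds the evening element AAAATATCT 82 to 74 bases before its gene start, a motif found in 2.36% of the 27443 protein-coding gene windows of the same length. The annotated *KMD4* transcript of 1540 bases is shorter than the gene, at chr3:22142856-22144439, so the distance to the transcript start may differ. *KMD1* holds TATCCA on the minus strand 94 to 89 bases before its start (13.6% of windows), and *KMD3* holds ACTCAT 52 to 47 bases before its start (12.3% of windows). The short type-B response regulator core AGATT, whose matches are not capitalised, occurs at 2 places each in *KMD1* and *KMD3* and at 0 in *KMD2* and *KMD4*, and 63.7% of all windows hold it. The CCA1-binding site AAAAATCT (6.69% of windows), the G-box CACGTG (6.49%), the I-box core GATAAG (12.3%) and the auxin response element TGTCTC (10.9%) were found in 0 of the 4 windows, which says only that these letters are not there. None of the 8 motifs was found in all of *KMD1*, *KMD3* and *KMD4*.

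*KMD4* was the most abundant member in every library. Per kilobase of transcript it averaged 146 CPM over the 48 libraries, ahead of *KMD1* with 64.3, *KMD2* with 19.9 and *KMD3* with 16.1 CPM per kb. *KMD4* lay above *KMD1* in 48 of 48 libraries, *KMD1* above *KMD3* in 48 and above *KMD2* in 41. The lower end of the order was not fixed, as *KMD2* exceeded *KMD3* in 34 libraries and at 12 of 16 time point means. The summed family level ranged from 42.8 to 627 CPM per kb, with a median of 205. *KMD4* supplied 48.9% to 69.1% of that sum, *KMD1* 9.17% to 29.9%, *KMD2* 3.52% to 30.5% and *KMD3* 3.67% to 8.89%. The share of *KMD2* was highest, at 30.5%, in replicate 2 of 22.5 h, a library in which the other 3 members were near their lowest levels.

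**Figure D1:**
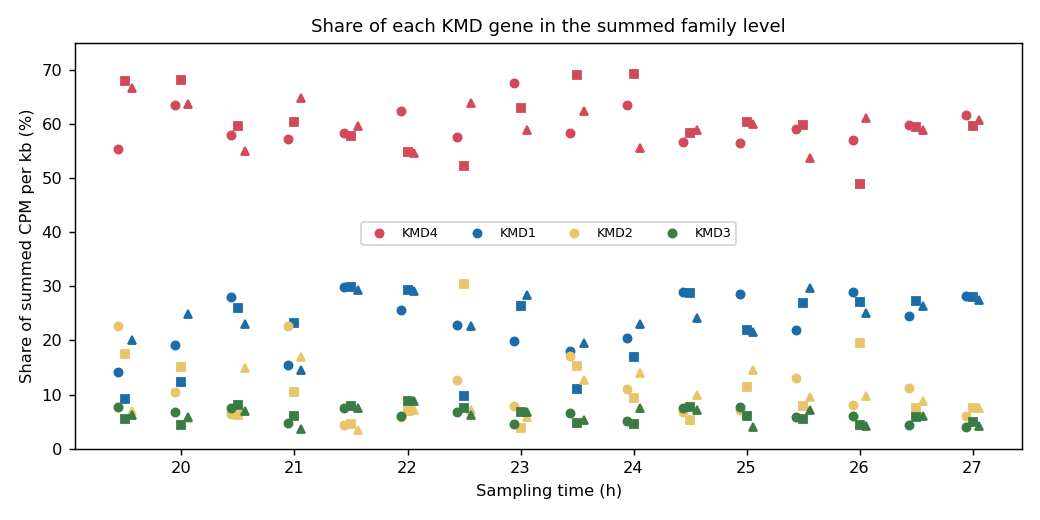
Share of each *KMD* gene (%) in the summed family level, as CPM per kb of transcript, against sampling time (h). Each point is 1 library (circle, replicate 1; square, replicate 2; triangle, replicate 3, set slightly apart). *KMD4* points stay between 48.9% and 69.1%, above all points of the other genes.

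*KMD1* moved over the widest range. Its libraries ran from 7.01 to 322 CPM, and its time point means from 30.7 ± 38.1 CPM at 19.5 h to 286 ± 40.3 CPM at 21.5 h (SD, n = 3 each). *KMD3* ran from 3.47 to 71.4 CPM, with its lowest mean at 21 h (8.13 ± 6.14 CPM) and its highest at 21.5 h (61.5 ± 10.4 CPM). *KMD4* ran from 36.5 to 557 CPM, with means from 101 ± 103 CPM at 19.5 h to 503 ± 71.4 CPM at 21.5 h. *KMD2* was flatter, from 13.4 to 66.1 CPM, with its lowest mean at 19.5 h (18.6 ± 6.47 CPM) and its highest at 24.5 h (51.4 ± 6.53 CPM). All 3 libraries of a time point lay above the gene's own 48-library median at 21.5, 22, 24.5 and 27 h for *KMD1*, *KMD3* and *KMD4*, and at 23 h for *KMD4*. For *KMD2* this was so at 20.5, 21.5, 24.5 and 26.5 h. All 3 lay below the median at 21, 23.5 and 24 h for *KMD1*, *KMD3* and *KMD4* alike. The high times 21.5 and 24.5 h thus each followed directly on a low time, 21 and 24 h.

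**Figure D2:**
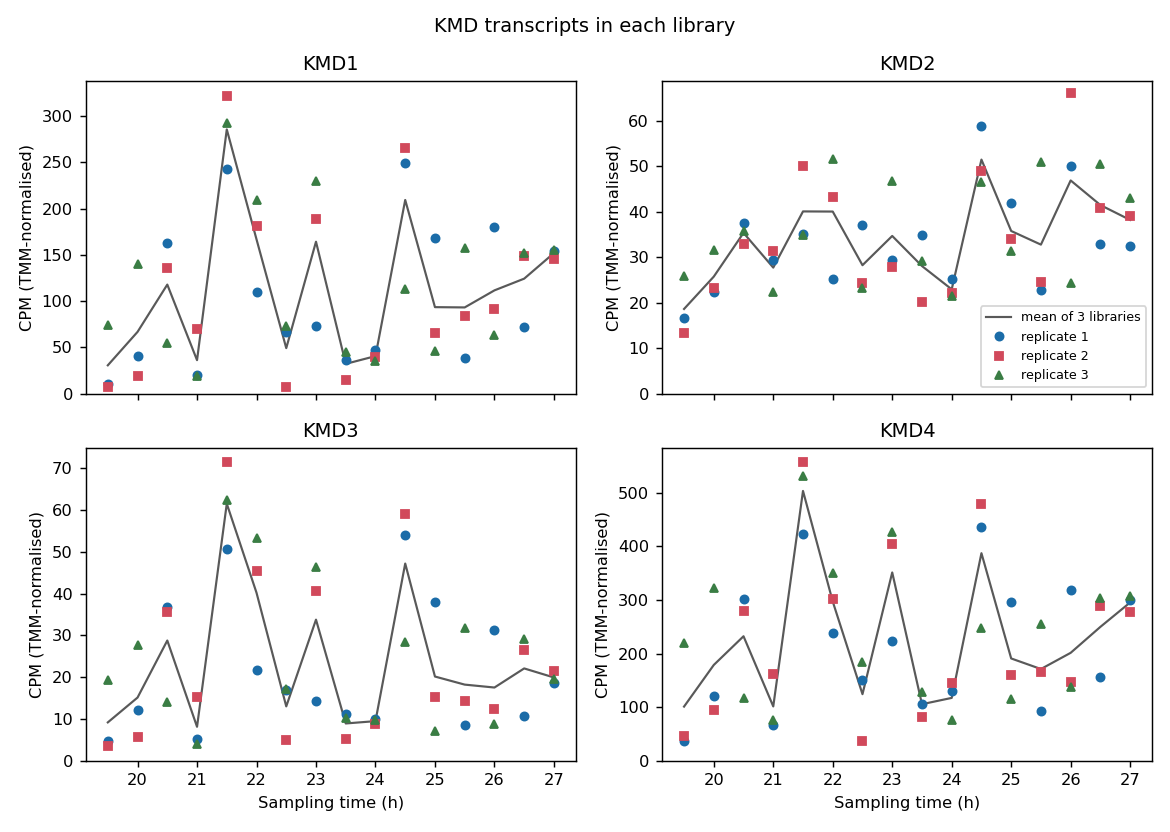
Level of each *KMD* gene in CPM (vertical axis, from 0, with its own scale) against sampling time (h). Points are libraries, coloured and shaped by replicate number, and the line joins the means of 3 libraries. *KMD1*, *KMD3* and *KMD4* have their highest mean at 21.5 h, and *KMD2* at 24.5 h.

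In edgeR's quasi-likelihood F test over all time points, the transcript level of 4 of 4 *KMD* genes differed among times, with Benjamini-Hochberg adjusted p-values of 0.00378 (*KMD1*), 0.0080 (*KMD2*), 0.00223 (*KMD3*) and 0.00387 (*KMD4*). This test called 64% of the 17562 genes that averaged 1 CPM or more, so the count says little about these genes, and the size of the change is given against all genes. The median range of time point means was 2.87 log2 units over the 4 members, against 0.58 over all tested genes. Such a range also widens with the spread between libraries of the same time, which was wide in these genes, as the next paragraph gives. Among the 11461 genes of at least 10 CPM, the range of *KMD1* (3.90) stood at percentile 99.8, that of *KMD3* (2.96) at 99.2, that of *KMD4* (2.77) at 99.0 and that of *KMD2* (1.46) at 91.5. With single libraries left out in turn, the adjusted p of the 4 genes stayed between 0.000394 and 0.023, and all calls held. They rested on replicates 1 and 2 as series: without replicate 1 only *KMD3* passed (0.0679 to 0.0864 for the others), and without replicate 2 none did (0.186 to 0.47), and the test then called 1566 genes in all, against 11236 with every library.

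Libraries of the same time differed widely too. The SD of log2(CPM + 1) within time points was 0.97 for *KMD1*, 0.79 for *KMD3*, 0.71 for *KMD4* and 0.38 for *KMD2*, where the median over genes of at least 10 CPM was 0.15. Among those genes *KMD1* stood at percentile 99.7, *KMD3* at 99.2, *KMD4* at 98.9 and *KMD2* at 92.5. *KMD1* differed by more than 2-fold between the highest and lowest of 3 libraries at 12 of 16 time points, *KMD3* at 13, *KMD4* at 8 and *KMD2* at 3. At 19.5 h *KMD1* had 10.5, 7.01 and 74.6 CPM, *KMD3* 4.81, 3.47 and 19.3 CPM and *KMD4* 36.5, 46.3 and 220 CPM in replicates 1, 2 and 3. The high library was replicate 3 for all of them, with the highest value 10.6, 5.56 and 6.03 times the lowest. At 22.5 h replicate 2 was the low one, with 7.77 CPM of *KMD1* (66.8 and 73.2 CPM in the others), 5.05 CPM of *KMD3* (16.8 and 17.2 CPM) and 37.2 CPM of *KMD4* (150 and 185 CPM). At 27 h the libraries were close, with 154, 146 and 156 CPM of *KMD1* and 300.2, 278 and 307 CPM of *KMD4*. The share of variance that lay between time points was 65.9% for *KMD1*, 57.8% for *KMD2*, 64% for *KMD3* and 64.1% for *KMD4*, near the median of 57% over all tested genes.

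These deviations were shared. After the mean of its time point was taken from each library, *KMD1* and *KMD4* correlated with r = 0.96, *KMD1* and *KMD3* with 0.95 and *KMD3* and *KMD4* with 0.92 over 48 libraries, whereas the pairs with *KMD2* gave 0.54 to 0.67. The points of these correlations share their libraries, and they are given as a description. At 13 of 16 time points the same library was highest for *KMD1*, *KMD3* and *KMD4*, and at 11 all 3 libraries stood in the same order. Across the 16 time point means of log2(CPM + 1), r was 0.98 for *KMD1* and *KMD4* (rho = 0.98), 0.96 for *KMD3* and *KMD4* (rho = 0.95) and 0.95 for *KMD1* and *KMD3* (rho = 0.96). In a permutation test with 100000 resamples, each of these had an adjusted p of 2e-05 over the 6 pairs for r and for rho, from the smallest p that the permutations can give, 1e-05. *KMD2* followed the others less closely by these values, with r = 0.87 with *KMD1* (rho = 0.83, permutation adjusted p = 3e-05 for r and 0.000225 for rho), 0.82 with *KMD4* (rho = 0.80, 0.000108 and 0.000432) and 0.78 with *KMD3* (rho = 0.77, 0.00037 and 0.00061). That difference in r was not tested. The permutations treat the 16 time points as exchangeable, though neighbouring ones are not independent of each other. Both genes of a pair also share the 3 libraries behind each mean. These p-values therefore cannot separate movement over time from variation shared by libraries. Without the 2 time points farthest from the median of the first-named gene, r was 0.93 to 0.98 within the group of 3 and 0.72 to 0.85 with *KMD2*. Within the libraries of 1 replicate number, r ran from 0.93 to 0.99 within the group of 3 and from 0.69 to 0.79 with *KMD2*. The group of 3 crosses the pairs by sequence: *KMD1* resembles *KMD2* most in its coding sequence and *KMD4* most in its level over libraries.

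**Figure D3:**
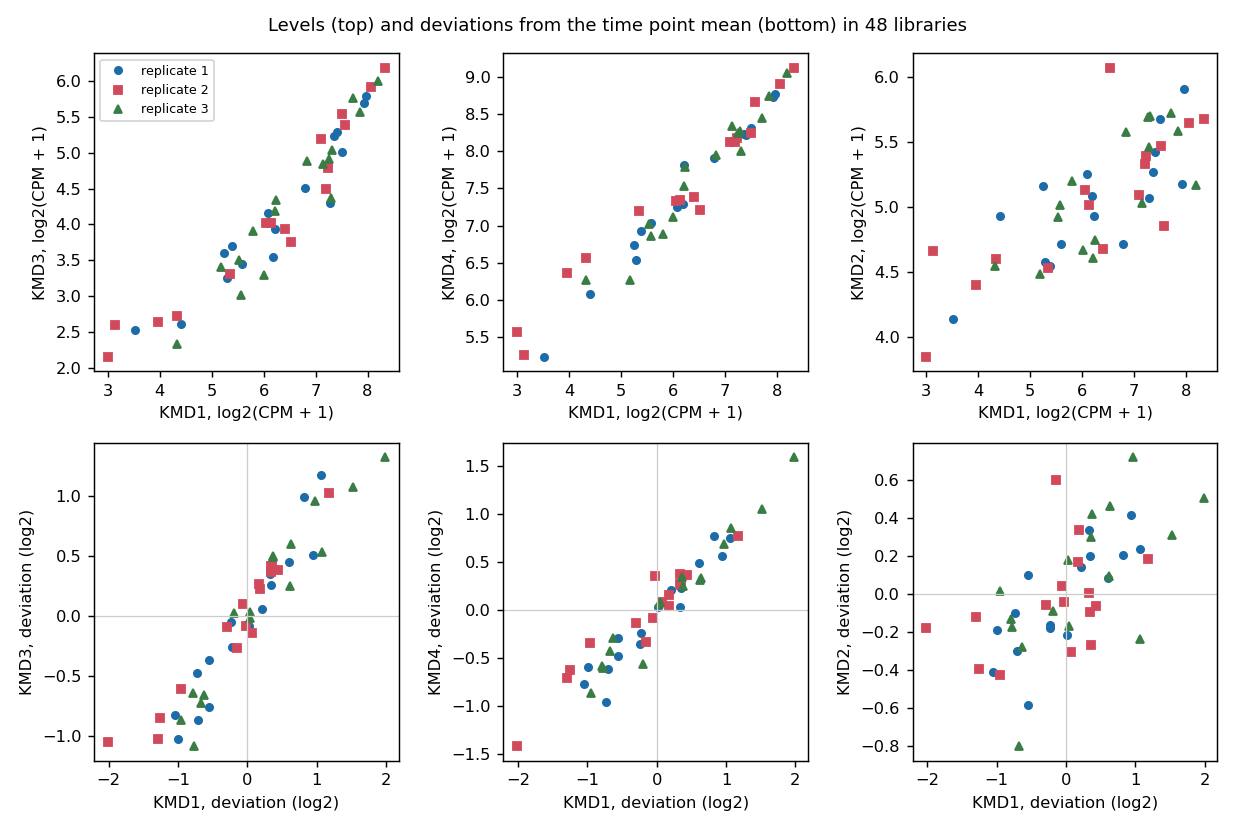
Top, log2(CPM + 1) of *KMD3*, *KMD4* and *KMD2* against that of *KMD1* in 48 libraries. Bottom, the same libraries after subtraction of the mean of their time point (log2 units), with points coloured and shaped by replicate number. The *KMD3* and *KMD4* deviations lie along a line with those of *KMD1* (r = 0.95 and 0.96), and the *KMD2* deviations scatter more (r = 0.62).

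Between neighbouring time points, 4 of 60 comparisons (15 for each gene) passed the threshold, with p-values adjusted over all genes and steps, and all 4 were rises. Over all genes, 1.33% of the 263430 comparisons rose and 1.27% fell. At 21.5 h *KMD1* had 242, 322 and 292 CPM, against 20.3, 69.5 and 19.1 CPM at 21 h. It rose by 2.91 log2 units (SE 0.80, edgeR adjusted p = 0.0438), and the libraries did not overlap. *KMD3* had 50.6, 71.4 and 62.4 CPM at 21.5 h, against 5.16, 15.2 and 4.05 CPM at 21 h. Its rise was 2.89 (SE 0.71, edgeR adjusted p = 0.0248). *KMD4* had 422, 557 and 530.3 CPM at 21.5 h, against 66.8, 161 and 76.1 CPM at 21 h, a rise of 2.29 (SE 0.59, edgeR adjusted p = 0.0310). At this step 2.72% of all tested genes rose and 2.85% fell. *LHY* was at 47.6 to 83.9 CPM at 21.5 h and at 28.3 to 37.4 CPM at 21 h. *KMD2* had 35.1, 50.1 and 35 CPM at 21.5 h, against 29.5, 31.3 and 22.4 CPM at 21 h, and this difference of 0.53 (SE 0.31) did not pass (edgeR adjusted p = 0.389). *KMD2* passed at the other such time: it had 58.8, 49 and 46.5 CPM at 24.5 h, against 25.3, 22.1 and 21.4 CPM at 24 h, a rise of 1.17 (SE 0.31, edgeR adjusted p = 0.0374).

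At 24.5 h *KMD1* had 249.5, 266 and 113 CPM, against 47, 39.7 and 35.3 CPM at 24 h, which did not overlap but missed the threshold (2.41, SE 0.79, edgeR adjusted p = 0.0886). *KMD3* (2.34, SE 0.69, adjusted p = 0.0573) and *KMD4* (1.72, SE 0.58, adjusted p = 0.0952) missed it as well in edgeR. The lowest adjusted p of any fall was 0.0944, for *KMD4* at 23.5 h against 23 h (-1.73, SE 0.58, edgeR). At that step *KMD1* changed by -2.37 (SE 0.79, edgeR adjusted p = 0.0949) and *KMD3* by -1.91 (SE 0.68, edgeR adjusted p = 0.123). At an unadjusted p under 0.05, 19 of the 60 comparisons passed, 6 each for *KMD1*, *KMD3* and *KMD4* and 1 for *KMD2*. The estimates of *KMD1*, *KMD3* and *KMD4* had the same sign at 14 of 15 steps, in libraries that the 3 genes share. The called rises depended on single libraries. Without replicate 1 or replicate 3 of 21 h, the adjusted p at 21.5 h became 0.141 and 0.151 for *KMD1*, 0.0898 and 0.102 for *KMD3* and 0.107 and 0.114 for *KMD4*. Without replicate 2 of 21.5 h it became 0.101, 0.0609 and 0.0721 for these genes. The *KMD1* call was also lost with no filter on low counts (0.0564), without replicate 1 (0.0603) or 3 (0.0509) of 21.5 h and without replicate 1 (0.0511) or 2 (0.0528) of 24.5 h. The *KMD2* call was lost without replicate 1 (0.0558), 2 (0.0791) or 3 (0.0827) of 24 h, replicate 1 (0.105) or 2 (0.0657) of 24.5 h and replicate 1 (0.0524) or 3 (0.0516) of 21 h. In the fits without 1 library of 21, 21.5, 24 or 24.5 h, the rise lay between 2.50 and 4.01 for *KMD1*, highest without replicate 2 of 21 h, and between 1.03 and 1.28 for *KMD2*.

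**Figure D4:**
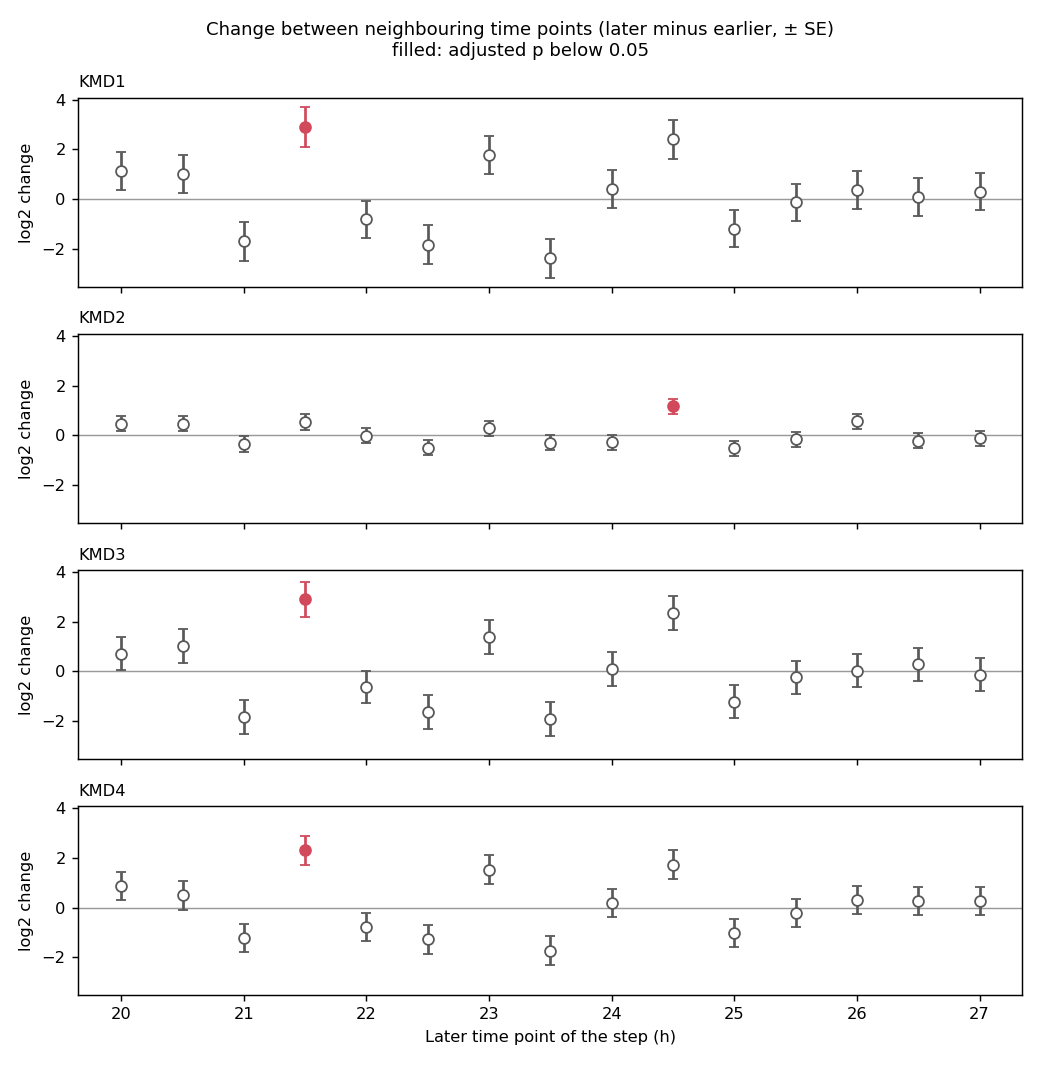
Fitted log2 change from each time point to the next (later minus earlier, vertical axis) against the later time point (h), for each *KMD* gene, with bars of ± 1 SE. Filled points passed the threshold: *KMD1*, *KMD3* and *KMD4* at 21.5 h and *KMD2* at 24.5 h, all above 0.

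The slow trend, the fitted linear change from 19.5 to 27 h, was called upward for 2 of 4 members, and 29.7% of all tested genes were called higher at 27 h. *KMD2* rose by 0.68 log2 units (SE 0.18, edgeR adjusted p = 0.00175) and *KMD1* by 1.07 (SE 0.44, adjusted p = 0.0384). *KMD2* had 32.5, 39.1 and 43 CPM at 27 h, against 16.6, 13.4 and 25.9 CPM at 19.5 h, without overlap. *KMD1* had 146 to 156 CPM at 27 h, against 7.01 to 74.6 CPM at 19.5 h. The estimates for *KMD4* (0.58, SE 0.32, edgeR adjusted p = 0.130) and *KMD3* (0.32, SE 0.38, adjusted p = 0.498) did not pass, and 0 of 4 members were called lower, a direction taken by 25.8% of the genes. The median trend over all tested genes was 0.03. With library totals in place of TMM it was 0.32, with 11019 genes called higher and 1635 lower (5216 and 4539 with TMM), and *KMD2* (0.97), *KMD1* (1.38) and *KMD4* (0.88) were then called higher. The *KMD2* call held without any single library (adjusted p up to 0.00585) but was lost without the replicate 2 series (0.0562). The *KMD1* call was lost in 14 of 48 such fits, with adjusted p from 0.0505 to 0.0873. The libraries were replicates 1 and 2 of 19.5 h and of 20 h, replicate 3 of 20.5 h, replicates 1 and 3 of 21 h, replicate 1 of 25 h, replicate 3 of 25.5 h, replicate 1 of 26 h, replicates 2 and 3 of 26.5 h and replicates 1 and 2 of 27 h. It was also lost without the time points 19.5 h (0.297), 20 h (0.0613), 21 h (0.0856), 24.5 h (0.0692), 26.5 h (0.064) or 27 h (0.103), and without the replicate 1 (0.310) or replicate 2 series (0.134). Without the high replicate 3 of 19.5 h, *KMD4* passed as well, with 0.96 (adjusted p = 0.00896), and so it did without the time point 21.5 h (0.0431) or the replicate 3 series (0.00792).

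Variation on shorter scales was tested in 2 bands, because a rhythm of a few hours was the subject of the time course. With 6 cosine and sine terms of 4 to 2 h tested jointly, 0 of 4 *KMD* genes were called by edgeR, where 6.39% of all tested genes were. Periods above 4 h have no term of their own in this test. The 1122 genes behind that share became 0 without replicate 1 or 2 of 21 h, 2 without replicate 1 of 23 h and 4063 without replicate 1 of 22.5 h, the lowest and highest of 48 such fits. Their adjusted p-values were 0.208 (*KMD1*), 0.187 (*KMD2*), 0.184 (*KMD3*) and 0.346 (*KMD4*), and 0 of 4 passed an unadjusted p of 0.05 (0.0585 to 0.181). DESeq2 called 0 of 4 and limma-voom 0 of 4, with 3 members at an unadjusted p under 0.05 in DESeq2 and 0 in limma-voom. The study, which counts *KMD1* among its oscillating genes, searched 2 to 5 h with MetaCycle at a p-value under 0.05. Its calls and those given here thus rest on unlike tests and thresholds. The best single cosine between 2 and 5 h was at 5 h for all 4 genes, which is the end of the range searched and longer than the periods of the joint test, and took up 9.45% to 15.3% of the variance left by trend and replicate. Its amplitude was 0.73 log2 units for *KMD1* (SE 0.29), 0.50 for *KMD3* (SE 0.24), 0.43 for *KMD4* (SE 0.21) and 0.27 for *KMD2* (SE 0.10), with first maxima from 21.2 to 21.5 h. The best period was not stable: without replicate 2 it lay at 2.1 to 2.4 h in the 4 genes. Leaving out a time point changed the call of the band for *KMD1* (21 h, adjusted p = 0.0313, and 22.5 h, 0.0234), *KMD3* (21 h, 0.0265, 22.5 h, 0.0221, and 23 h, 0.0456) and *KMD4* (22.5 h, 0.0342) in edgeR, and *KMD2* was called without replicate 3 (0.0333).

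Variation faster than 2 h, tested with the 7 terms of 1.6 to 1 h, was called for 3 of 4 members, *KMD4* (edgeR adjusted p = 0.00403), *KMD3* (0.00543) and *KMD1* (0.0061), where 35.9% of all tested genes were called. These terms hold jumps between neighbouring times such as those into 21.5 and 24.5 h. *KMD2* did not pass (0.0729). Its call was gained without replicate 1 of 22 h (0.0439), replicate 1 of 22.5 h (0.037), replicate 3 of 25.5 h (0.025) or replicate 3 of 26 h (0.0152), without the time points 22 h (0.0476), 25.5 h (0.0483) or 26 h (0.0300), without the replicate 3 series (0.0202) and with DESeq2 (0.0332). The 3 other calls held without any single library, and were lost without the time point 23 h for *KMD1* (0.0588) and 21 h for *KMD3* (0.0698). Without the replicate 2 series all 3 were lost (0.193 for *KMD1*, 0.241 for *KMD3* and 0.218 for *KMD4*), and without replicate 1 that of *KMD1* was (0.0635).

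Genes of the pathways in which KMD proteins act were listed, with other Kelch F-box genes as a list of their own. Together they had a median range of time point means of 0.78 log2 units, against 2.87 in the *KMD* genes. The other Kelch F-box genes alone had 2.02. Of 63 genes in these 8 lists, 39 had a mean of at least 1 CPM and were tested, and 30 of these differed among time points, beside 64% of all genes. With the terms of 4 to 2 h 5 of the 39 were called, beside 6.39% of all genes, and faster than 2 h 18 of the 39, beside 35.9%. The other Kelch F-box genes supplied 5 of the 30, 2 of the 5 and 3 of the 18. The slow trend was called upward for 7 (29.7% of all genes) and downward for 15 of the 39 (25.8% of all genes) with TMM scaling, but upward for 16 and downward for 4 with library totals, which shift the median trend of all genes as given above. With TMM, 1 of the 7 and 3 of the 15 were other Kelch F-box genes. The 4 called downward under both scalings are *ARR9*, *CKX4*, *AFR* and *ZTL*, of which *AFR* and *ZTL* are from the list of other Kelch F-box genes. Trends of single genes are given with TMM scaling unless stated.

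Among the type-B response regulators, the substrates of KMD proteins in the cytokinin pathway, 6 of 11 were tested and 5 differed among times. *ARR12* (-0.23, SE 0.05, edgeR adjusted p = 0.00069), *ARR10* (-0.24, SE 0.08, adjusted p = 0.0101) and *ARR11* (-0.30, SE 0.13, adjusted p = 0.0469) fell slowly with TMM scaling, while with library totals *ARR12* (0.07) and *ARR10* (0.06) had the opposite sign and none of the 3 passed. *ARR2* was called with the terms of 4 to 2 h (edgeR adjusted p = 0.0336) within 17.8 to 26.2 CPM. *ARR1*, the most abundant, stayed within 66.1 to 110.5 CPM and had the highest trend of the list (0.02, SE 0.07). With library totals *ARR1* (0.32) and *ARR2* (0.27) were called upward, where the median trend over all tested genes was 0.32. The r of *ARR1* with *KMD1* over the 48 libraries was 0.67, and that of *ARR10* -0.46. Of the phenylalanine ammonia-lyases, *PAL2* (-0.58, SE 0.17, edgeR adjusted p = 0.00373) and *PAL3* (-0.38, SE 0.09, adjusted p = 0.000765) fell slowly with TMM scaling, and neither passed with library totals (-0.28 and -0.09). *PAL1*, the most abundant at 71.3 to 334 CPM, and *PAL4* passed none of the tests (edgeR adjusted p of at least 0.161). The r of the 4 *PAL* genes with *KMD1* lay between -0.04 and 0.28. In the SCF core, *ASK2* (-0.27, SE 0.08) and *RBX1* (-0.19, SE 0.06) fell and *CUL1* rose (0.11, SE 0.03), with adjusted p of 0.00356, 0.00731 and 0.00617 in edgeR. With library totals *CUL1* rose as well (0.41), and *ASK2* (0.03) and *RBX1* (0.11) changed sign. *ASK1* stayed within 158 to 242 CPM, with a trend of -0.12 (SE 0.06, edgeR adjusted p = 0.108), and was called upward with library totals (0.18).

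Upstream in the cytokinin pathway, 6 of 8 tested receptor and phosphotransfer genes differed among times, and *AHP2* (0.26, SE 0.04, edgeR adjusted p = 1.45e-05), *AHK3* (0.14, SE 0.05, adjusted p = 0.0232) and *AHP5* (0.16, SE 0.06, adjusted p = 0.039) rose slowly. The *AHP5* call was lost with DESeq2 size factors (edgeR adjusted p = 0.0639). The type-A response regulators, which cytokinin induces and which dampen its signal, were low, and 3 of 10 were tested. *ARR9* (1.03 to 7.54 CPM) fell by 0.88 (SE 0.16, edgeR adjusted p = 1.85e-05) and *ARR4* (6.09 to 21.8 CPM) by 0.43 (SE 0.13, adjusted p = 0.00651, not called with library totals), while *ARR8* gave -0.30 (SE 0.16, adjusted p = 0.122). Of the synthesis genes, *LOG8* rose by 0.32 (SE 0.09, edgeR adjusted p = 0.00226) and *LOG7* by 0.33 (SE 0.10, adjusted p = 0.00666), and *IPT7* fell by 0.49 (SE 0.15, adjusted p = 0.00665, not called with library totals). *LOG1*, which encodes a cytokinin-activating enzyme, was the listed synthesis gene most like the *KMD* genes, with r = 0.72 with *KMD1*, 0.73 with *KMD2*, 0.82 with *KMD3* and 0.69 with *KMD4* over 48 libraries. The other tested synthesis genes lay between -0.68 (*IPT7*) and -0.33 (*IPT3*) with *KMD1*. Of the oxidases that break cytokinin down, *CKX4* fell by 1.11 (SE 0.17, edgeR adjusted p = 2.2e-06) and *CKX7* by 0.43 (SE 0.10, adjusted p = 0.000765, not called with library totals). *CKX6* differed among times (edgeR adjusted p = 0.00373) without a called trend, but was called upward with library totals (0.55). The r of the tested oxidases with *KMD1* ran from -0.77 (*CKX7*) to 0.40 (*CKX6*).

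Other F-box genes with Kelch repeats differed among times in 5 of 5 cases, beside 64% of all genes, and their trends differed in sign. AT1G23390, annotated as a Kelch repeat-containing F-box family protein, ran from 12.6 to 315 CPM, varied faster than 2 h (edgeR adjusted p = 0.00429) and showed no called trend (0.17, SE 0.41, adjusted p = 0.739). Its r with *KMD1* was 0.94 and with *KMD3* 0.97. *FKF1*, a blue light receptor of the flowering pathway, rose by 1.90 (SE 0.67, edgeR adjusted p = 0.0173) within 0.0962 to 27.4 CPM, with r = 0.05 with *KMD1*. Its relatives *ZTL* (-0.45, SE 0.06, edgeR adjusted p = 2.55e-07) and *LKP2* (-0.26, SE 0.05, adjusted p = 0.000154) fell, as did *AFR*, a gene of far-red light signalling (-1.59, SE 0.21, adjusted p = 2.23e-07). With library totals *LKP2* (0.04) changed sign and was not called.

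Genes most like each *KMD* gene were taken by Pearson's r of log2(CPM + 1) over the 48 libraries, among 11457 other genes of at least 10 CPM. They are a description, since they were picked for this value. AT5G60680, a gene of unknown function (DUF584), stood first for *KMD1* (r = 0.98) and for *KMD4* (0.99), and ran from 11.4 to 124 CPM. AT2G25200 (DUF868) stood first for *KMD3* (0.99), ahead of AT5G25280 (0.98), AT1G80180 (0.97), AT1G23390 (0.97) and *ATCTH* (0.97), a zinc finger gene. *RD26*, a NAC transcription factor of the dehydration response, was among the 5 most like *KMD1* (0.97) and *KMD4* (0.96), and so was the RING-type gene AT1G26800 (0.97 and 0.98). The list of *KMD1* was completed by AT1G27290 (0.97) and the thioredoxin family gene AT5G18600 (0.97), and that of *KMD4* by AT5G25280 (0.96) and AT2G25200 (0.95). The 5 genes most like *KMD2* were others, with lower r: AT1G21920 (0.90), AT5G40720 (0.90), AT1G02660 (0.90), AT4G25690 (0.90) and *EBF2* (0.89), an F-box gene of ethylene signalling. The 20 places in these lists were filled by 15 genes, and the 5 genes that stood in 2 lists were not in that of *KMD2*.

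At the other end, the lowest r values were near -0.9. AT5G09460 (bHLH143) was lowest for *KMD1* (-0.93) and among the lowest for *KMD3* (-0.92). *HK1*, a histidine kinase gene, was lowest for *KMD3* (-0.93), and *BRG2*, a zinc finger gene, was at -0.92 with *KMD3* and -0.91 with *KMD4*. *CRK40*, a receptor-like kinase gene, was lowest for *KMD4* (-0.94) and at -0.91 with *KMD1*, where AT4G16490 was also at -0.91. *TCP9*, a TCP transcription factor, was at -0.91 with *KMD4*. For *KMD2* the lowest were AT1G45688 (-0.88), *UGT78D1* (-0.88), which encodes a flavonol rhamnosyltransferase, and the receptor-like kinase gene AT5G67280 (-0.87).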

How the data were processed

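The authors used FastQC for read quality, STAR for mapping to TAIR10 and HTSeq for counting, and deposited raw whole-number counts of 34262 genes in 48 libraries. The submitters' notes give no tool versions, and neither the gene annotation's release nor the use of strand in counting is stated in them. The table has 1 further column, an index, which was not used.

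CPM values were computed with TMM normalization. The 17562 genes averaging 1 CPM or more entered quasi-likelihood F tests of edgeR 4.0.16 in R 4.3.3. The model held replicate number and 15 orthonormal time terms (a linear and a quadratic trend, 6 terms at 4 to 2 h and 7 faster ones), which left 30 residual degrees of freedom. P-values were adjusted by Benjamini-Hochberg over all genes, for steps over all genes and 15 steps, at 0.05. limma 3.58.1 (voom) and DESeq2 1.42.0 served as alternatives, and all 3 were first tested on simulated data. Cosines (2 to 5 h in steps of 0.1 h) and correlations used log2(CPM + 1).

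No 2 replicate libraries held identical counts (chi-square per degree of freedom at least 7.78). The members and lists were chosen with earlier results of these data known. Named genes are the 4 members, *LHY*, up to 4 genes per list by the joint test, each list's lowest and highest trend, and the 5 most and 3 least alike genes per member. *ASK1*, *PAL4* and *LKP2* were named after their values were seen. The 63 listed loci all occur in RefSeq's TAIR10.1 gene table, which also gave names, gene models and promoter sequences.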

Additional observations from a re-analysis of the deposited data

How the results depend on the processing

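The counts of *KMD* genes called (4 for any difference, 2 for the slow trend, 0 for 4 to 2 h, 3 for faster variation) were the same with DESeq2 size factors, no filter, a filter at 5 CPM, no replicate block and limma-voom. DESeq2 called 4 for faster variation and library totals 3 for the trend. Leaving out a replicate series gave 0 to 4 for any difference, 0 to 3 for the trend, 0 to 1 for 4 to 2 h, 0 to 4 for faster variation, 0 to 3 steps and 3 to 21 list genes with any difference (30 with all). Without 1 library the trend count was 1 or more in 48 of 48 fits, and 1 without the libraries named above. Without 1 time point it was 1 for 19.5, 20, 21, 24.5, 26.5 and 27 h and 3 for 21.5 h, and the 4 to 2 h count was 2 (21 h), 3 (22.5 h) and 1 (23 h). The trend of *KMD3* (0.32) ran from -0.021 (without replicate 1) to 0.76 (without replicate 3) with a replicate left out, and was -0.10 without 19.5 h. Of steps, 4 were called, 3 with no filter, 5 with library totals, 9 with DESeq2 and, in fits chosen after seeing the data, 0 without replicate 1 or 3 of 21 h, 1 without replicate 2 of 21.5 h and 2 without replicate 1 or 2 of 24.5 h. Libraries of the same replicate number were not alike on average (mean correlation of deviations -0.037, and 0.018 for other numbers). Of the same-number pairs, 31.9% had a correlation above 0.1. Whether a replicate number marks a shared batch was not tested. With no replicate block, 5 steps were called. Over all genes the 4 to 2 h count of 1122 became 703 with no filter, 1810 with no replicate block, 3296 with DESeq2 and 5450 without the 2 libraries that *LHY* set apart, and it was 0 to 1752 with a replicate left out. Genes with any difference fell to 1566 without replicate 2, and faster ones to 24 (11236 and 6296 with all). Here the cause was not tested. Without those 2 libraries the best period was 3.0 h for *KMD3* and 2.9 h for *KMD4*, and the *KMD2* step was lost (edgeR adjusted p = 0.0568).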
